A study of Rattus norvegicus with 23 samples.

Results

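Oligodendroglia carry receptors for the neurotransmitters glutamate and GABA, and the genes for these receptors were followed through 23 rat RNA-seq libraries of 6 groups. Members were chosen by name alone: every gene that the deposited tables call Gria, Grik, Grin, Grid or Grm with a number, or Gabr or Gabbr, leaving out Grina. The rule found 24 genes among 14690 named identifiers. Of these, 22 were counted in all 6 groups, and Gabrp and Gabrr3 only in differentiating CG4 cells. The name Grid2ip meets the rule, but its product is a scaffold protein of receptors, so 23 of the 24 genes encode receptor subunits. Family members to which the deposited tables give no name were not analysed here.

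All 6 groups are rat cells in culture. CG4 is an immortalized line that comes from rat brain oligodendroglia. Of the groups, 3 with 4 libraries each are CG4 cells differentiated for 3 days after transduction: with the empty vector pCAG-IRES-EGFP (control), with pCAG-myc-Zfp488-IRES-EGFP (Zfp488), or, for the Nkx2.2 group, with pCAG-T7-Nkx2.2-IRES-EGFP. Zfp488 and Nkx2.2 are transcription factors of the oligodendrocyte lineage, here driven by the CAG promoter, and the share of transduced cells is not given in the sources used here. Another group is 3 libraries of proliferating wild-type CG4 cells without a vector. The last pair of groups is primary oligodendroglia, shaken off mixed glial cultures, proliferating (4 libraries) or differentiated for 3 days (4 libraries). Proliferating cells were kept with bFGF and PDGF-AA, and differentiating cells in SATO medium with thyroid hormones (T3/T4) and CNTF. Proliferating CG4 cells were read as paired ends of 100 bases and every other group as paired ends of 150 bases. In CG4 cells the condition, the vector and the read length therefore cannot be told apart. Between the cell sources, the read length also differs in proliferating cells. In differentiating cells, the labels name a vector for CG4 cells only.

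Glutamate acts on ion channels built from 4 subunits, named after the agonists AMPA, kainate and NMDA, and on metabotropic receptors that signal through G proteins. GABA opens the chloride channels of GABA-A receptors, which have 5 subunits, and activates GABA-B receptors, which are G protein-coupled pairs of GABBR1 and GABBR2. Oligodendrocyte progenitors are known for AMPA and GABA-A currents and receive synapses from neurons, and these inputs wane as the cells mature.

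Library totals ran from 20063345 to 49206479 counts. The introduced genes followed their labels: Zfp488 stood at 167 ± 29.0 CPM in Zfp488 cultures against 42.4 ± 11.3 CPM in controls (counts scaled to a common library size, mean ± SD, n = 4 each), and Nkx2-2 at 1282 to 1990 CPM in Nkx2.2 cultures against 211 to 299 CPM. All 7 oligodendrocyte markers were read in every group. Their summed level was 89405 to 99342 CPM in differentiating and 1129 to 1204 CPM in proliferating primary cells. In CG4 cells it was 9618 to 17083 CPM in controls, 17002 to 32094 CPM with Zfp488, 5962 to 16588 CPM with Nkx2.2 and 1297 to 2386 CPM in proliferating cells. The primary cultures also held reads of other cell types' markers, and these moved with differentiation. Of 12 neuron markers, 10 were read in every group, and they summed to 576 to 608 CPM in proliferating and 242 to 315 CPM in differentiating primary cells. Dcx took more than any other of the 10 in proliferating cells, at 306 to 336 CPM. In differentiating cells it held 58.9 to 101 CPM beside 72.5 to 86.7 CPM of Syt1. Syn1, Elavl4 and Snap25 went from means of 84.3, 46.8 and 28.6 CPM to 50.1, 8.04 and 5.55 CPM, whereas Syt1 went from 9.55 to 80.8 CPM. The lowest of the 10, the vesicular glutamate transporters Slc17a6 and Slc17a7, stayed at or under 0.235 CPM in both. Of 8 microglia markers, Csf1r and P2ry12 could be followed, and their sum was 355 to 371 CPM in proliferating and 13.1 to 17.2 CPM in differentiating primary cells. The sum of 6 of 7 astrocyte markers was 149 to 155 CPM and 1119 to 2122 CPM in the same order. Gfap, Aldoc and Fgfr3 went from means of 4.38, 32.0 and 9.97 CPM to 1072, 278 and 123 CPM. Slc1a2 and Aldh1l1 also rose, whereas Gja1 went from 101 to 80.4 CPM. In CG4 cells the same 6 summed to 164 to 312 CPM when proliferating and 2314 to 3691 CPM in differentiating controls. Gfap, Fgfr3 and Aldoc held means of 1303, 1098 and 589 CPM in these controls. Gja1, Slc1a2 and Aldh1l1 held 2.28, 1.03 and 0.408 CPM. The part of other cell types' markers in the receptor values was not tested. In bulk libraries, fewer cells of a type and less RNA per cell cannot be told apart.

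**Figure D1:**
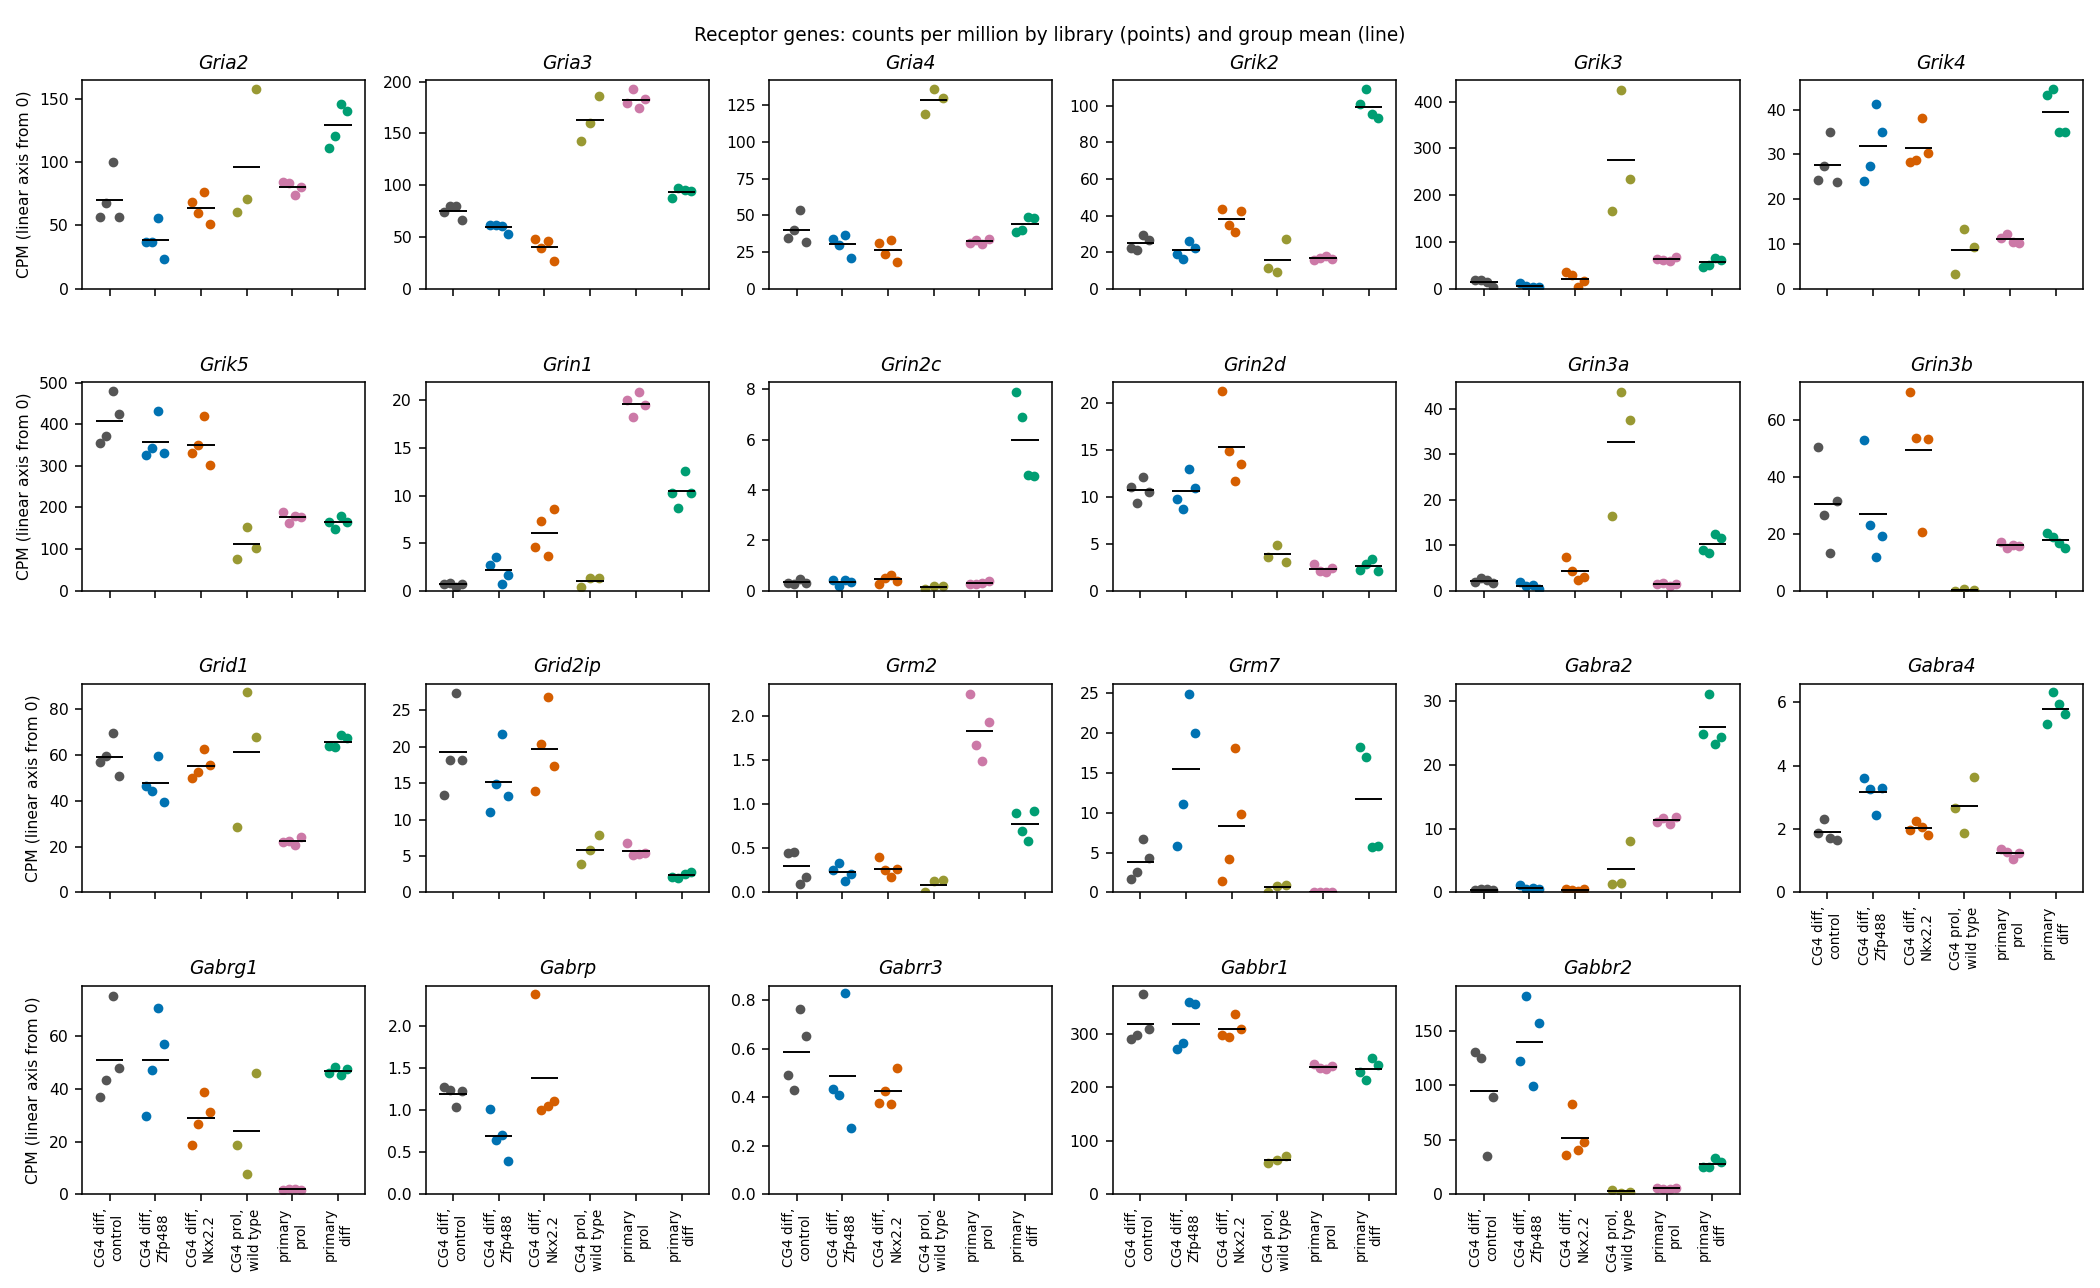
CPM of 23 of the 24 genes on linear axes from 0, 1 panel per gene, with 1 point per library and a line at each group mean, for the 6 groups along the x axis. Grik2 and Grin2c stand highest in differentiating primary cells, Grik3, Grin3a and Gria4 in proliferating CG4 cells, and Gabrp and Gabrr3 have points in differentiating CG4 cells only.

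Within each cell source taken alone, most of these genes differed between proliferating and differentiating cells, as did most of the transcriptome. In CG4 cells the vector and the read length differ along with the condition. A gene was called when its adjusted p fell under 0.05 in edgeR's quasi-likelihood test, with Benjamini-Hochberg adjustment over all genes tested. In primary cells 14 of 22 tested genes rose and 4 fell, beside 41.5% of all genes called higher and 43.3% called lower. The share of members called, 81.8%, was near the 84.8% over all genes. Proliferating primary libraries lay closer to each other than any CG4 pair, so primary SE and adjusted p measure a small spread. The members' median log2 fold change was 0.98 against -0.02 over all genes. Scaled by library totals alone, the median of all genes moved to -0.52, the share of calls that were higher went from 49.0% to 27.8% over all genes, and the members split into 11 higher and 8 lower. In CG4 cells 9 of 21 tested genes were higher in differentiating controls than in proliferating cells and 5 were lower, beside 32.5% and 33.2% over all genes.

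The responses of most members differed between the cell sources. Of 21 genes tested in both, 10 were called in both: Gabbr2, Grik4, Grin2c, Grin3b and Grm7 higher in both, Gria3 lower in both, Gabra2, Gria4 and Grin3a higher in primary and lower in CG4 cells, and Grid2ip the reverse. Over all genes, 84.8% were called in primary and 65.8% in CG4 cells. The share of all genes called in both was not taken, so the counts of members called in both are a description only. Grin2c and Grm7 in both sources and Grin3b in CG4 cells passed the filter only through the differentiating libraries. The rises of Gria4 and Grin3b in primary cells turned to -0.01 and -0.31 with library totals. A test of the difference between the responses (an interaction term over 15 libraries) called 19 of 22 members. In 7 the CG4 response was the more positive one and in 12 the primary response, beside 33.8% and 35.4% of all genes. One of them, Grm2, was under the filter in the CG4 libraries alone, and entered this test and both comparisons between sources only through its reads in primary cells. With library totals the members split 8 to 11 and the median over all genes moved from -0.03 to 0.43. Differentiating controls and differentiating primary cells differed in 17 of 22 genes, with 5 higher and 12 lower in CG4 controls, beside 36.8% and 36.2% of all genes. With library totals these counts were 6 and 9, and the median over all genes moved from 0.00 to 0.29. Proliferating CG4 and proliferating primary cells differed in 16 of 22, with 8 higher and 8 lower in CG4, beside 39.2% and 32.0%. The cell source cannot be told apart from the read length in proliferating cells, or from the vector in differentiating cells.

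**Figure D2:**
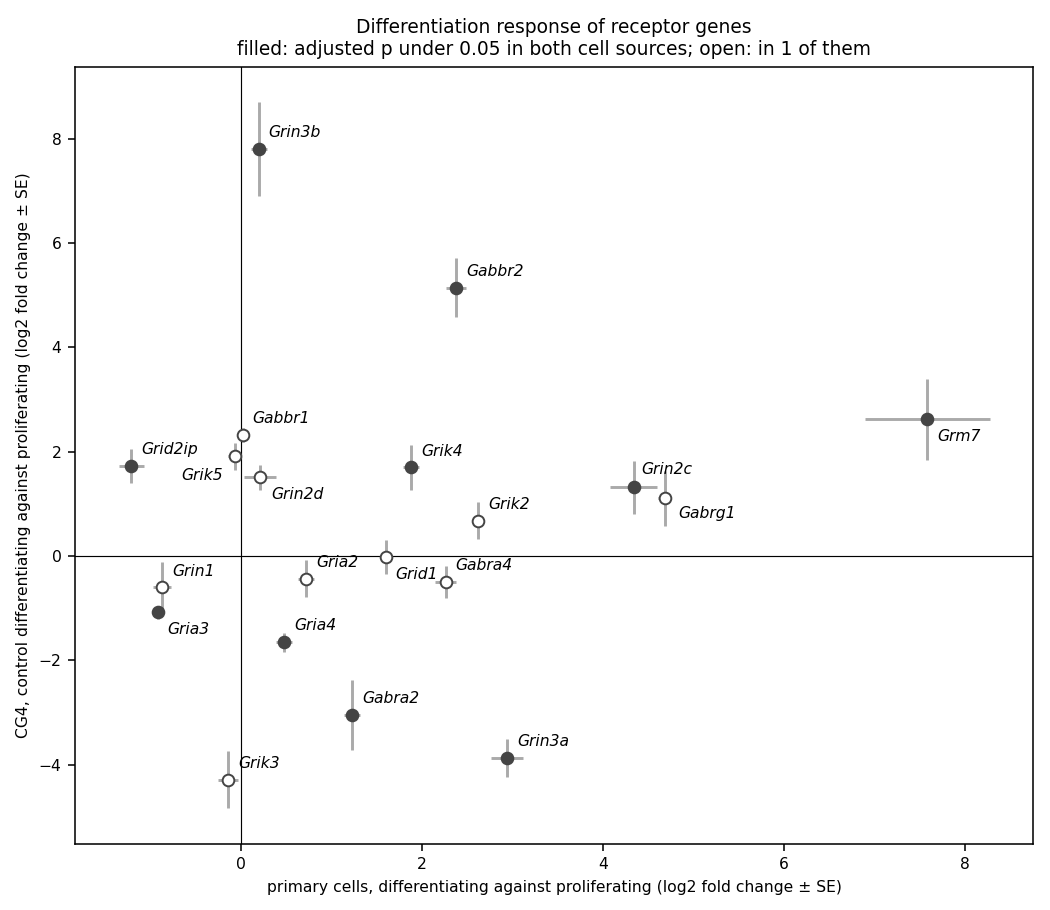
Log2 fold change on differentiation (± SE) in primary cells on the x axis and in CG4 cells on the y axis for 20 of the 21 genes tested in both; filled points passed the test in both sources and open points in 1. Grm7 lies farthest to the right (7.58), Grin3b highest (7.81), and Grin3a and Gabra2 lie right of 0 and below it.

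Fewer members moved with the introduced factors. With Zfp488, 3 of 24 genes rose, among them Grin1 and Gabra4, and Gria2 fell, beside 5.89% of all genes called higher and 3.15% called lower. With Nkx2.2, Grin1 and Grik2 rose and Gria3 fell, beside 6.10% and 4.48%. Zfp488 cultures held 4 members above and 6 below Nkx2.2 cultures, beside 13.3% and 12% of all genes. Scaling by library totals gave 2 above and 8 below and moved the median over all genes from -0.01 to -0.14. The same scaling took the share of higher calls over all genes from 65.2% to 49.2% for Zfp488 and from 57.7% to 72.2% for Nkx2.2, and left the members' splits at 3 to 1 and 2 to 1.

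Libraries of the same replicate number deviated together in differentiating CG4 cells, so fits with the number as a block are given beside these results. With the block, 4 members rose and 7 fell with Zfp488, beside 14.0% and 10.2% of all genes. With Nkx2.2, 6 rose and 4 fell, beside 12.6% and 13.5%. Against Nkx2.2, Zfp488 cultures were higher in 6 and lower in 10 members, beside 22.0% and 20.3%. Both factor comparisons share the control libraries. In the authors' deposited tables, 6 of 23 listed members had an adjusted p under 0.05 for Zfp488 (4 higher, 2 lower) and 5 of 24 for Nkx2.2 (3 higher, 2 lower). The share over all genes listed by the authors was not taken, so these 2 counts are a description only.

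**Figure D3:**
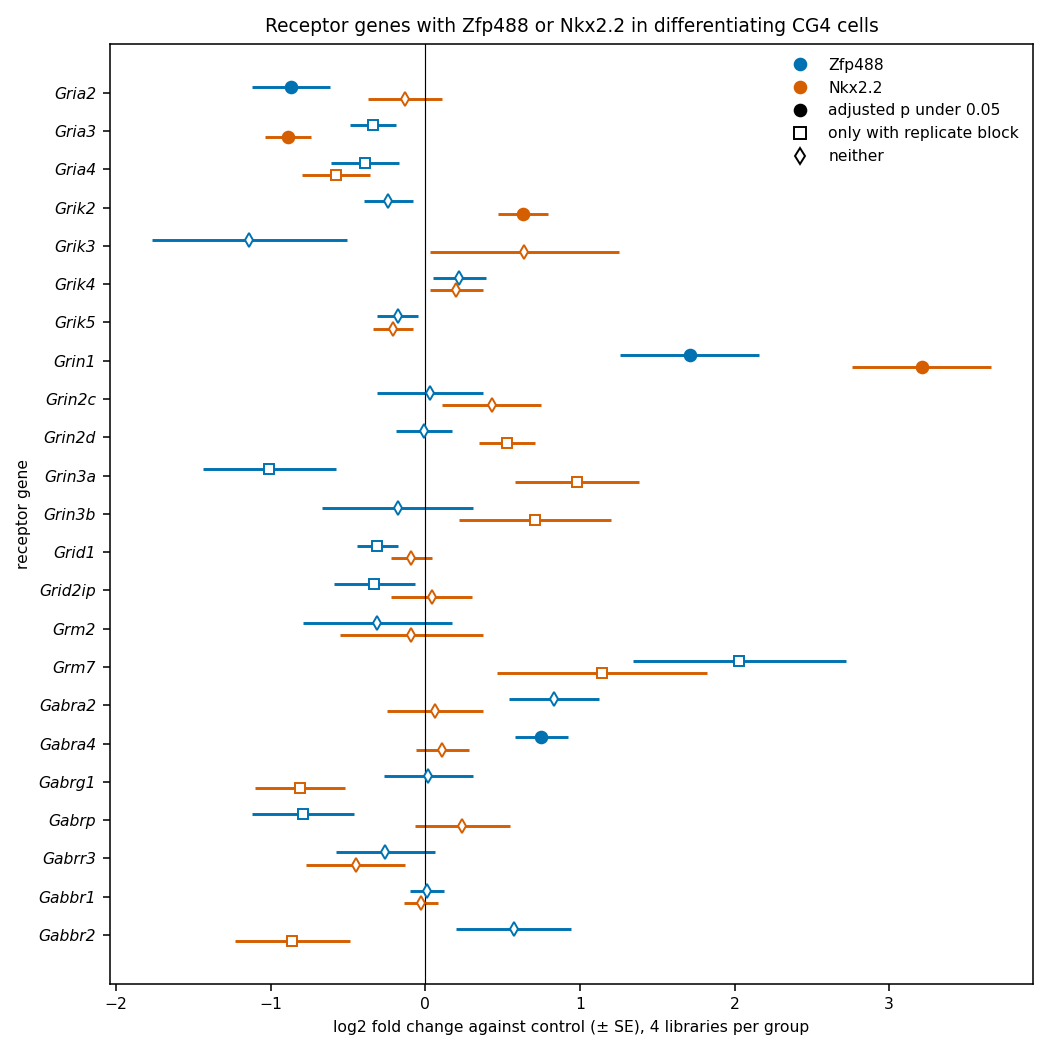
Log2 fold change against control (± SE, 4 libraries per group) for 23 of the 24 genes, with Zfp488 in blue and Nkx2.2 in orange; filled circles passed the test, open squares passed it only with the replicate block and open diamonds in neither fit. Of the filled circles, Grin1 lies farthest right for both factors, at 1.71 and 3.21, and Gria2 (Zfp488) and Gria3 (Nkx2.2) are the filled circles left of 0.

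AMPA receptors carry fast glutamate currents. Gria2, Gria3 and Gria4 encode the subunits GluA2, GluA3 and GluA4, and a GluA2 subunit edited at its pore site keeps calcium out. In primary cells Gria2 read 84.5, 83.5, 74.3 and 80.5 CPM when proliferating and 111, 120.4, 146 and 140.2 CPM when differentiating. It rose by 0.72 ± 0.09 (log2 fold change ± SE, adjusted p = 1.3e-05), and the groups did not overlap. With library totals alone the rise was 0.23 (adjusted p = 0.0628). Gria3 fell from 182 ± 7.63 to 93.5 ± 3.89 CPM (mean ± SD, n = 4 each), a log2 change of -0.92 ± 0.05 (adjusted p = 6.5e-09). Gria4 rose from 32.1 ± 1.60 to 43.8 ± 5.46 CPM, by 0.48 ± 0.09 (adjusted p = 0.000292), but library totals left it at -0.01.

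The same genes took another course in CG4 cells. Gria4 read 119, 136 and 130.0 CPM in proliferating cells and 34.6, 39.8, 53.6 and 31.9 CPM in differentiating controls. That is a log2 change of -1.65 ± 0.18 (adjusted p = 0.000109), with no overlap. Gria3 fell by 1.08 ± 0.13 on the log2 scale (adjusted p = 0.000151), and its response did not differ from that of primary cells by the test (difference -0.12 ± 0.12, adjusted p = 0.406). Library totals turned that difference to 0.34 (adjusted p = 0.046). Gria2 did not pass in CG4 cells (-0.43 ± 0.35, adjusted p = 0.309), where proliferating replicate 3 held 158 CPM beside 60.9 and 70.5 CPM. Its response differed from that of primary cells by -1.11 ± 0.37 (adjusted p = 0.0149), which left the threshold without proliferating CG4 replicate 3 (adjusted p = 0.0587) or with library totals (-0.67, adjusted p = 0.136).

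With the factors, Gria2 was called for Zfp488 and Gria3 for Nkx2.2. Gria2 read 56.3, 67.6, 100.4 and 56.5 CPM in controls, 36.8, 36.6, 55.5 and 23.6 CPM with Zfp488, and 68.1, 59.7, 76.2 and 50.9 CPM with Nkx2.2. All 4 Zfp488 libraries lay under all 4 controls, and the Nkx2.2 libraries overlapped them. The change with Zfp488 was -0.87 ± 0.25 (adjusted p = 0.0467, with the block 4.97e-04). That call ended when any of 10 libraries was left out (control 1 to 4, Zfp488 1, 2 and 4, Nkx2.2 1, 2 and 4, adjusted p up to 0.126), and with only the 8 libraries compared (adjusted p = 0.0729). Between the factors Gria2 differed by -0.74 ± 0.25 (adjusted p = 0.0435), and leaving out any 1 of 7 libraries (control 2, Zfp488 1, 2, 4, Nkx2.2 1, 2, 3) ended the call (highest 0.107).

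Gria3 read 74.4, 79.9, 80.1 and 66.5 CPM in controls and 48.2, 39.7, 46.1 and 26.6 CPM with Nkx2.2. It fell by 0.89 ± 0.15 on the log2 scale (adjusted p = 0.00257), and the adjusted p stayed at or under 0.0115 whichever library was left out. With Zfp488 it stood at 61.4, 61.1, 60.9 and 53.0 CPM, also under every control (-0.34 ± 0.15, adjusted p = 0.187, with the block 0.0341), and it passed with only the 8 libraries compared (0.0464) and without Nkx2.2 replicate 4 (0.0476). Zfp488 and Nkx2.2 differed by 0.56 ± 0.15 (adjusted p = 0.0185), which left the threshold without Nkx2.2 replicate 2 (0.0522) or with library totals (0.42, adjusted p = 0.0618). Gria4 passed with neither factor (-0.39 ± 0.22, adjusted p = 0.304 with Zfp488, and -0.58 ± 0.22, adjusted p = 0.122 with Nkx2.2). With the block its adjusted p was 0.0194 and 0.00216.

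The balance of Gria2, Gria3 and Gria4 reads shows these shifts within a library, whatever its scaling. The AMPA receptor gene Gria1 is not among the named members, so these are not shares of all AMPA receptor reads. These shares and those of the GABA-B genes were chosen after the values were seen and carry no test, and they depend on transcript length, so only the same share may be compared between libraries. Gria2 made up 26.6% to 28.7% of the Gria2, Gria3 and Gria4 reads in proliferating and 46.8% to 50.4% in differentiating primary cells. In differentiating CG4 cells it made up 34.1%, 36.1%, 42.9% and 36.5% in controls, 27.9%, 28.7%, 36.4% and 24.2% with Zfp488, and 46.1%, 48.4%, 49.1% and 53.5% with Nkx2.2. In every replicate number the Zfp488 share was under the control share, and the Nkx2.2 shares lay above all those of both other groups. In proliferating CG4 cells it made up 18.9%, 19.3% and 33.3%.

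**Figure D4:**
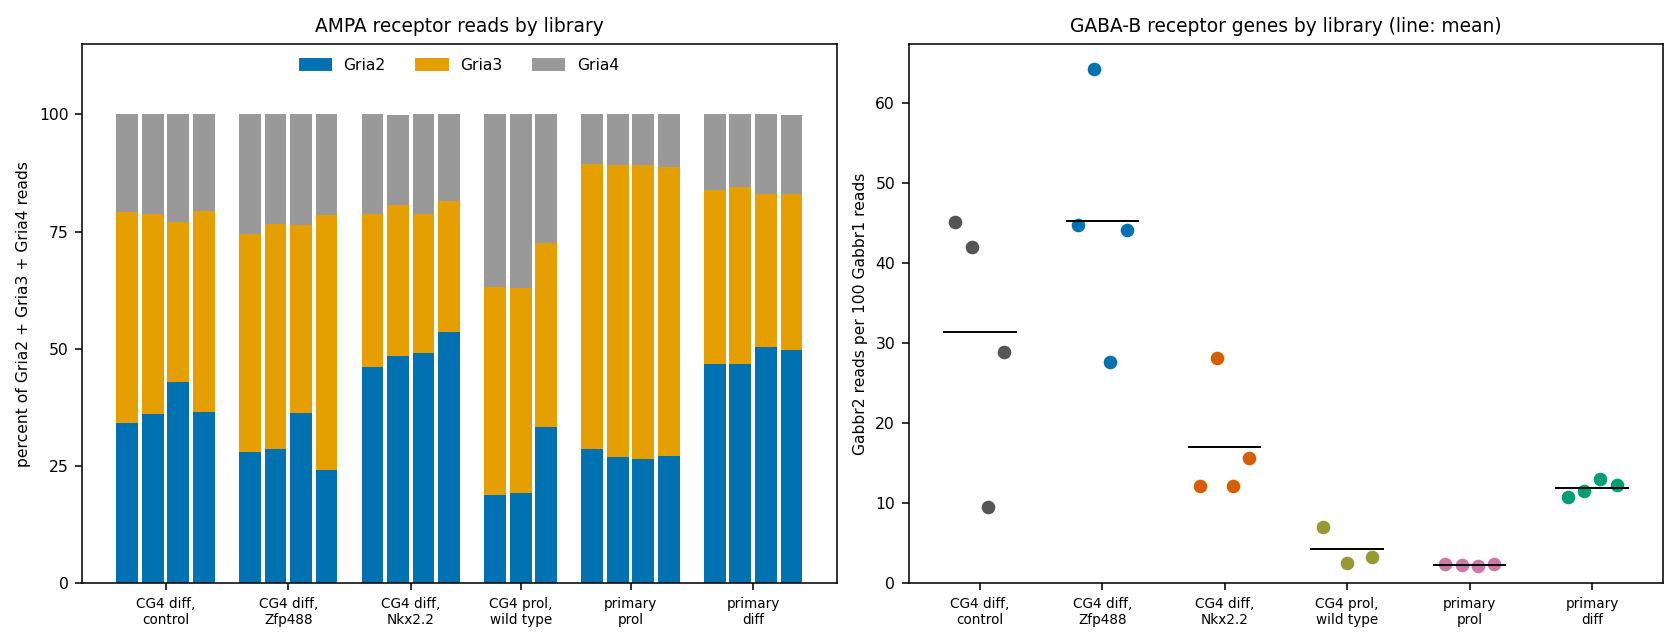
Left, bars from 0 give the percent of Gria2, Gria3 and Gria4 reads that each gene took, 1 bar per library; right, points give Gabbr2 reads per 100 Gabbr1 reads in each library with a line at the group mean. The Gria2 part lies between 46.1% and 53.5% in Nkx2.2 and between 24.2% and 36.4% in Zfp488 cultures, and Gabbr2 per 100 Gabbr1 reads lies between 2.2 and 2.44 in proliferating primary cells.

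Kainate receptors are glutamate channels that can hold Grik2 or Grik3 products, with or without those of Grik4 or Grik5. The products of Grik4 and Grik5 need such a partner to form a channel. Grik2 (GluK2) read 15.8, 16.9, 17.8 and 16.4 CPM in proliferating and 101, 109, 95.3 and 93.1 CPM in differentiating primary cells. It rose by 2.62 ± 0.06 (adjusted p = 1.07e-11), with no overlap. In CG4 cells it went from 15.8 ± 9.65 CPM (n = 3) to 24.7 ± 4.04 CPM (n = 4), which did not pass (0.68 ± 0.36, adjusted p = 0.127). Without proliferating CG4 replicate 3, at 26.9 CPM, it did (adjusted p = 0.00175). The difference between the sources was -1.90 ± 0.35 (adjusted p = 0.000226), and -1.29 without the same library.

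Grik2 was also the kainate receptor gene that moved with a factor. It read 22.0, 20.9, 29.6 and 26.5 CPM in controls and 43.4, 34.8, 31.2 and 42.5 CPM with Nkx2.2, with no overlap. The rise was 0.63 ± 0.16 (adjusted p = 0.0271), and leaving out control 1, control 2, Nkx2.2 1 or Nkx2.2 4 ended the call (highest 0.0868). Zfp488 cultures held 19.1, 16.2, 26.1 and 22.1 CPM, all under the Nkx2.2 libraries (-0.87 ± 0.16, adjusted p = 0.00259), and that call held in all 12 fits without 1 library (up to 0.00999).

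Grik3 (GluK3) stood out in proliferating CG4 cells, at 166, 425 and 234 CPM. Differentiating controls held 18.5, 18.9, 13.4 and 4.12 CPM, a log2 change of -4.29 ± 0.55 (adjusted p = 0.000232). Primary cells held 59.7 to 68.2 CPM when proliferating and 45.3 to 65.4 CPM when differentiating, which overlapped (-0.14 ± 0.11, adjusted p = 0.225, and -0.64, adjusted p = 0.000534, with library totals). The responses differed by -4.11 ± 0.53 (adjusted p = 7.66e-06). Between the factors Grik3 passed with the block (-1.71, adjusted p = 0.0148) and not without it (-1.78 ± 0.63, adjusted p = 0.0575). It also passed without control 4, Zfp488 1 or Nkx2.2 3 (lowest 0.00845) and with library totals (0.0425).

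Grik4 and Grik5 encode the partner subunits GluK4 and GluK5. Grik4 rose in both sources: from 11.1 ± 0.863 to 39.4 ± 5.17 CPM in primary cells (1.88 ± 0.09, adjusted p = 6.57e-09), and from 8.64 ± 5.06 to 27.6 ± 5.12 CPM in CG4 cells (1.70 ± 0.43, adjusted p = 0.00771). The difference between these responses did not pass (-0.12 ± 0.42, adjusted p = 0.809), except without proliferating CG4 replicate 1 (0.0499). Grik5 rose in CG4 cells from 76.5, 154 and 103 CPM to 356, 371, 481 and 425 CPM, by 1.91 ± 0.25 (adjusted p = 0.000254). In primary cells it stood at 177 ± 10.3 and 164 ± 13.0 CPM (-0.07 ± 0.07, adjusted p = 0.329), which library totals put at -0.57 (adjusted p = 2.88e-05). The difference between the responses was 2.02 ± 0.24 (adjusted p = 3.59e-06). Neither gene passed with a factor, with or without the block.

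NMDA receptors need Grin1, which encodes the obligatory subunit GluN1, and join it with GluN2 or GluN3 subunits. Among the members called with each factor, Grin1 had the largest log2 change. It read 0.715, 0.810, 0.394 and 0.699 CPM in controls (16 to 32 reads per library), and 4.59, 7.29, 3.66 and 8.54 CPM with Nkx2.2 (108 to 291 reads). The rise was 3.21 ± 0.45 (adjusted p = 0.000871), a fold of 9.24, with no overlap, and the adjusted p was at most 0.00447 whichever library was left out. Summed neuron markers stood at 167 to 405 CPM in controls and 179.9 to 256 CPM with Nkx2.2. Most of this was Syt1, Nefl and Nefm, at means of 119, 65.0 and 59.8 CPM and then 101, 57.2 and 50.1 CPM. Snap25 read 0.320 to 0.737 CPM and 0.857 to 1.25 CPM. Slc17a6 and Slc17a7 went from means of 1.44 and 1.22 CPM to 3.00 and 0.696 CPM. Syn1 and Rbfox3 were slightly higher and Elavl4 and Dcx slightly lower in mean. The part of these markers in the Grin1 rise was not tested. In the authors' deposited table the log2 change of Grin1 was 3.22 with an adjusted p of 8.38e-19. With Zfp488 it read 2.71, 3.51, 0.703 and 1.59 CPM, where replicate 3 lay within the control range. That change was 1.71 ± 0.45 (adjusted p = 0.0355, with the block 0.00342), and the call ended without any 1 of 8 libraries (control 1 to 4, Zfp488 1, 2 and 4, Nkx2.2 2, up to 0.116) and with only the 8 libraries compared (0.0532). Zfp488 and Nkx2.2 differed by -1.49 ± 0.42 (adjusted p = 0.0207), which ended without Zfp488 4, Nkx2.2 2 or Nkx2.2 4 (highest 0.0629).

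Grin1 was lower in CG4 than in primary cells. Proliferating primary cells held 20.0, 18.3, 20.9 and 19.5 CPM and differentiating ones 10.3, 8.70, 12.6 and 10.3 CPM, a fall of 0.87 ± 0.10 on the log2 scale (adjusted p = 1.06e-05). The neuron markers stood at 592 and 279 CPM in mean summed level in the same libraries, and their part in the Grin1 values was not tested. Differentiating controls lay under differentiating primary cells by -3.99 ± 0.31 (adjusted p = 3.31e-08) and proliferating CG4 under proliferating primary cells by -4.31 ± 0.35 (adjusted p = 4.55e-08). The highest Nkx2.2 library, at 8.54 CPM, was near the lowest differentiating primary one, at 8.70 CPM.

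The bases upstream of Grin1 and Grik2, the genes that rose with Nkx2.2, are shown because Nkx2.2 is a homeodomain factor of the NK2 class, whose binding sites share the core AAGTG. RefSeq promoters of build GRCr8 were matched by symbol for 16 of the 24 members, and the 250 bases before each gene's start are used. The counts were made on build rn6, so no position was compared between them. Capitals mark AAGTG, or its reverse complement CACTT. Grin1 lies on the minus strand, chr3:28528755-28529004, and Grik2 on the minus strand, chr20:54415284-54415533. Each holds 1 match, and so do 40.6% of the 33469 promoters of this length in the table at least once. Of 17 promoters of the 16 members, 4 held one (also Grik4 and Grik5). A match is a description of letters and not a binding site.
Grin1: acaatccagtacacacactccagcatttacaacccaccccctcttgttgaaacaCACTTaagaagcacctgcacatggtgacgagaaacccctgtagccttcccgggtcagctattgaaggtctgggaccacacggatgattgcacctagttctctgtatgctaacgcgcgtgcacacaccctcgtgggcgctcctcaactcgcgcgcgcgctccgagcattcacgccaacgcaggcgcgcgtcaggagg
Grik2: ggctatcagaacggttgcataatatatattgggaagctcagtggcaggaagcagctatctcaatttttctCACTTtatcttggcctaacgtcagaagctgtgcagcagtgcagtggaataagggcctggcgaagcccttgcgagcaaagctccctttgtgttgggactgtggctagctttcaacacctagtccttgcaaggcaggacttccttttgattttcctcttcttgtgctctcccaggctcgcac

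Of the GluN2 genes, Grin2c and Grin2d were counted. Grin2c rose in primary cells from 0.269, 0.244, 0.308 and 0.376 CPM to 7.89, 6.89, 4.59 and 4.56 CPM (4.34 ± 0.26, adjusted p = 2.95e-08), with no overlap. In both sources it passed the filter only through the differentiating libraries. In CG4 cells it passed narrowly (1.32 ± 0.51, adjusted p = 0.0496) on 15 reads over the 3 proliferating libraries. That call ended without proliferating CG4 1 or 3 or any control (up to 0.118), with library totals (0.051), without a filter on low counts and in DESeq2 (0.0888). Grin2d rose in CG4 cells from 3.84 ± 0.946 to 10.7 ± 1.16 CPM (1.51 ± 0.24, adjusted p = 0.000688) and stood at 2.30 ± 0.376 and 2.62 ± 0.585 CPM in primary cells (0.21 ± 0.18, adjusted p = 0.283). With Nkx2.2 it read 21.2, 14.8, 11.7 and 13.5 CPM (0.53 ± 0.18, adjusted p = 0.0856, with the block 0.0396), and it passed in DESeq2 (0.0454) and without Nkx2.2 replicate 3 (0.0315). Between the factors it differed by -0.54 ± 0.18 (adjusted p = 0.046), with overlapping groups, and the call ended without any 1 of 10 libraries (all but Zfp488 3 and Nkx2.2 3, highest 0.129), without a filter on low counts and with only the 8 libraries compared (0.0818).

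GluN3 subunits, from Grin3a and Grin3b, make NMDA receptors that pass less calcium. The pair moved apart in CG4 cells. Grin3a went from 16.5, 43.7 and 37.6 CPM in proliferating cells to 1.99, 2.73, 2.41 and 1.62 CPM in differentiating controls (-3.87 ± 0.36, adjusted p = 4.46e-05). Grin3b went from 0, 0.376 and 0.0728 CPM (15 reads in all) to 50.4, 26.5, 13.4 and 31.5 CPM (7.81 ± 0.90, adjusted p = 0.000129). Grin3b passed the filter of that comparison only through the controls. The summed reads give a ratio of 238, with an exact 95% interval of 144 to 425 that covers counting error only. In primary cells Grin3a rose from 1.36 ± 0.221 to 10.3 ± 2.01 CPM (2.94 ± 0.18, adjusted p = 2.82e-08), and Grin3b stood at 15.1 to 17.0 CPM and 15.1 to 20.1 CPM. The Grin3b change of 0.20 ± 0.09 (adjusted p = 0.0489) turned to -0.31 with library totals (adjusted p = 0.00305), ended with the block (0.0501) or without a filter on low counts, and ended without proliferating primary 2, 3 or 4 or differentiating primary 1 or 2 (up to 0.142). The responses differed by -6.77 ± 0.42 for Grin3a (adjusted p = 3.3e-09) and 7.67 ± 0.72 for Grin3b (adjusted p = 2.66e-07). The Grin3b values depend on the few reads of the proliferating CG4 libraries: without replicate 2 the CG4 change was 9.63 and the difference of responses 9.44, and without replicate 1 they were 7.18 and 7.04.

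With the factors, Grin3a read 1.81, 0.974, 1.18 and 0.367 CPM under Zfp488 and 7.36, 4.23, 2.37 and 3.04 CPM under Nkx2.2. These groups did not overlap (-1.99 ± 0.43, adjusted p = 0.00571). Against control it passed only with the block, at -1.10 for Zfp488 (adjusted p = 0.0311) and 0.89 for Nkx2.2 (adjusted p = 0.0438). Grin3b spread widely within each group, from 11.7 to 53.2 CPM with Zfp488 and from 20.8 to 69.9 CPM with Nkx2.2. Replicate 3 was the lowest and replicate 1 the highest in all 3 differentiating CG4 groups. With the block Grin3b was higher with Nkx2.2 than in controls (0.74, adjusted p = 0.00361), and lower with Zfp488 than with Nkx2.2 (-0.97, adjusted p = 4.30e-04), where the fits without the block gave adjusted p of 0.397 and 0.206. The latter passed without Zfp488 replicate 1 (0.0394).

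Delta receptors belong to the glutamate receptor family by sequence, and Grid1 encodes one of their subunits. Grid1 rose in primary cells from 22.3 ± 1.33 to 66.0 ± 2.52 CPM (1.60 ± 0.05, adjusted p = 2.38e-10). CG4 cells held 28.4, 87.7 and 68.0 CPM when proliferating and 51.0 to 69.7 CPM as differentiating controls, which overlapped (-0.02 ± 0.33, adjusted p = 0.959). The responses differed by -1.58 ± 0.34 (adjusted p = 0.000726). With Zfp488 Grid1 passed under the block (-0.31, adjusted p = 0.0136, and 0.164 without it) or without Zfp488 replicate 3 (0.0414). Grid2ip, the scaffold gene, moved in opposite directions: from 5.65 ± 0.748 to 2.40 ± 0.354 CPM in primary cells (-1.21 ± 0.14, adjusted p = 9.48e-06), and from 5.88 ± 1.97 to 19.2 ± 5.84 CPM in CG4 cells (1.73 ± 0.32, adjusted p = 0.00168). Its block value with Zfp488 was -0.33 (adjusted p = 0.00845), against 0.478 without the block.

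Both metabotropic members, Grm2 and Grm7, encode receptors that couple to inhibitory G proteins. Grm7 had 2, 1, 1 and 3 reads in the proliferating primary libraries and 525, 443, 118 and 114 reads in the differentiating ones. In CPM these are 0.0349 to 0.0805 and 18.2, 17.0, 5.70 and 5.84. The ratio of summed reads was 213, with an exact 95% interval of 103 to 532 for counting error. The edgeR change was 7.58 ± 0.69 (adjusted p = 1.19e-06), where Grm7 passed the filter only through the differentiating libraries. Differentiating replicates 1 and 2 lay above replicates 3 and 4. These libraries form close pairs over all genes, and with each pair summed the adjusted p was 1.46e-06. In CG4 cells Grm7 rose from 0.0962, 0.814 and 0.995 CPM to 1.65, 2.62, 6.70 and 4.35 CPM (2.62 ± 0.77, adjusted p = 0.0165). The proliferating CG4 libraries held 4, 26 and 41 reads, and Grm7 passed the filter of that comparison only through the controls. The responses differed by -4.92 ± 1.09 (adjusted p = 0.000963).

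With the factors Grm7 read 5.89, 11.1, 24.9 and 20.0 CPM (Zfp488) and 1.41, 4.16, 18.1 and 9.91 CPM (Nkx2.2). Replicate 3 was the highest and replicate 1 the lowest in these groups and in controls, so the groups overlapped. Within each replicate number the Zfp488 library was above its control. The change with Zfp488 was 2.03 ± 0.69 without the block (adjusted p = 0.0865) and 2.04 with it (adjusted p = 2.67e-04). It passed with only the 8 libraries compared (0.0427), in DESeq2 (0.0474) and without Nkx2.2 replicate 1 (0.0421). The authors' deposited table gives 2.04 with an adjusted p of 0.00736. With Nkx2.2 the block value was 0.90 (adjusted p = 0.0141), against 0.324 without the block.

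Grm2 stayed low. It fell in primary cells from 2.25, 1.67, 1.49 and 1.93 CPM to 0.900, 0.693, 0.580 and 0.921 CPM (-1.21 ± 0.20, adjusted p = 0.00017). In CG4 cells it had 0, 4 and 6 reads when proliferating and 20, 17, 4 and 8 reads in differentiating controls, and was under the filter of that comparison. The ratio of summed reads was 3.37, with an exact 95% interval of 1.69 to 7.46 for counting error.

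GABA-A receptors are built from alpha, beta, gamma and other subunits, and 5 of their genes were members: Gabra2, Gabra4, Gabrg1, Gabrp (the pi subunit) and Gabrr3 (a rho subunit). All 3 that were counted in primary cells rose there. Gabrg1 (gamma1) read 1.85, 2.06, 1.89 and 1.77 CPM in proliferating and 46.1, 48.5, 45.5 and 47.6 CPM in differentiating primary cells (4.68 ± 0.07, adjusted p = 5.5e-13). Gabra2 (alpha2) rose from 11.3 ± 0.552 to 25.9 ± 3.55 CPM (1.23 ± 0.09, adjusted p = 1.77e-07). Gabra4 (alpha4) rose from 1.24 ± 0.137 to 5.80 ± 0.421 CPM (2.26 ± 0.12, adjusted p = 8.64e-09). None of the 3 rose by the test in CG4 cells, and the responses differed for each, by -3.52 ± 0.56 for Gabrg1, -4.25 ± 0.65 for Gabra2 and -2.72 ± 0.30 for Gabra4 (adjusted p of 5.89e-05, 3.68e-05 and 1.25e-06). Without proliferating CG4 replicate 3 the differences of Gabrg1 and Gabra2 were -2.67 and -2.89 (adjusted p of 2.88e-05 and 9.05e-08).

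Gabra2 was under 1 CPM in differentiating CG4 controls. It read 1.40, 1.44 and 8.13 CPM in proliferating cells and 0.380, 0.513, 0.492 and 0.338 CPM in differentiating controls (-3.05 ± 0.67, adjusted p = 0.00404), where differentiating primary cells held 23.3 to 31.1 CPM. Without proliferating replicate 3, the 8.13 CPM library, the change was -1.69 (adjusted p = 0.00403). Gabrg1 varied between proliferating CG4 libraries, at 18.7, 7.79 and 45.9 CPM. Against the controls, at 37.0, 43.6, 75.4 and 48.1 CPM, the difference did not pass (1.11 ± 0.53, adjusted p = 0.097) except without proliferating replicate 3 (0.00643). Proliferating CG4 cells held more Gabrg1 than proliferating primary cells (3.65 ± 0.44, adjusted p = 3.23e-06, and 2.82 without proliferating CG4 replicate 3), whereas differentiating controls and differentiating primary cells overlapped (0.13 ± 0.36, adjusted p = 0.758).

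Among the GABA-A genes Zfp488 raised Gabra4. It read 3.61, 3.28, 2.43 and 3.30 CPM with Zfp488 and 1.88, 2.32, 1.72 and 1.65 CPM in controls, which did not overlap (0.75 ± 0.17, adjusted p = 0.0194). Leaving out control 3, Zfp488 2 or Zfp488 4 ended the call (highest 0.0631). Against Nkx2.2 the difference was 0.64 ± 0.17 (adjusted p = 0.0165), which ended without Nkx2.2 4 (0.0507) or with library totals (0.0513). Gabra2 read 0.564 to 1.12 CPM with Zfp488, above all controls, but did not pass (0.83 ± 0.29, adjusted p = 0.100, with the block 0.0735). Gabrg1 read 18.7, 26.9, 39.0 and 31.1 CPM with Nkx2.2, each under the control of its number. It passed with the block (-0.81, adjusted p = 8.79e-05) and not without it (0.0979), except in DESeq2 (0.0430) or without Nkx2.2 replicate 3 (0.0481). Against Zfp488 the block value was 0.81 (adjusted p = 4.93e-05), and 0.0544 without it. Leaving out control 3, Zfp488 1 or Nkx2.2 3 let it pass (lowest 0.0165), as did DESeq2 (0.0215).

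The other two GABA-A genes were near the limit of detection. Gabrp read 1.27, 1.24, 1.03 and 1.22 CPM in controls, 1.01, 0.641, 0.703 and 0.398 CPM with Zfp488 and 2.37, 1.00, 1.05 and 1.11 CPM with Nkx2.2. The factors differed by -1.03 ± 0.33 (adjusted p = 0.0377), a call that ended without Nkx2.2 1, the 2.37 CPM library, without control 2, Zfp488 2, 3 or 4 (highest 0.125), and with only the 8 libraries compared (0.0780). Against control Zfp488 gave -0.79 ± 0.33 (adjusted p = 0.154, with the block 0.0367). Gabrr3, at 0.275 to 0.831 CPM over the 12 libraries, was the 1 member called in no comparison and under 1 CPM in every group.

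GABA-B receptors need both subunits: GABBR1 binds GABA, and GABBR2 brings the pair to the membrane and couples it to the G protein. Gabbr2 rose in both sources. In CG4 cells it read 4.14, 1.66 and 2.40 CPM when proliferating and 131, 125, 35.5 and 89.4 CPM in differentiating controls (5.15 ± 0.57, adjusted p = 0.000106). In primary cells it read 5.95, 5.27, 5.14 and 5.80 CPM and then 24.8, 24.7, 33.3 and 29.6 CPM (2.38 ± 0.11, adjusted p = 4.55e-09). Neither pair of groups overlapped, and the responses differed by 2.80 ± 0.51 (adjusted p = 0.000184).

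Gabbr1 rose in CG4 cells, from 58.7, 63.8 and 72.5 CPM to 289.7, 298, 373 and 309 CPM (2.32 ± 0.14, adjusted p = 4.63e-06). In primary cells it stood at 234 to 244 CPM and 213 to 254 CPM (0.02 ± 0.06, adjusted p = 0.759), which library totals put at -0.48 (adjusted p = 6.15e-05). The responses differed by 2.34 ± 0.13 (adjusted p = 1.6e-09). Proliferating CG4 cells lay under proliferating primary cells (-1.89 ± 0.10, adjusted p = 5.11e-10), and differentiating controls lay above differentiating primary cells (0.45 ± 0.09, adjusted p = 0.000364). With both factors Gabbr1 stayed within 0.03 of control on the log2 scale.

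Gabbr2 separated the factors from each other. It read 122, 182, 99.2 and 157 CPM with Zfp488 and 36.3, 82.9, 41.0 and 48.2 CPM with Nkx2.2, which did not overlap (1.42 ± 0.37, adjusted p = 0.0154). That call held in all 12 fits without 1 library (up to 0.0496). Against control neither factor passed (0.57 ± 0.37, adjusted p = 0.373 with Zfp488, and -0.86 ± 0.37, adjusted p = 0.165 with Nkx2.2). Control replicate 3, at 35.5 CPM, lay well under the other controls, and without it the Nkx2.2 change passed (adjusted p = 0.0266), as it did with the block (-0.80, adjusted p = 0.0356). Per 100 Gabbr1 reads there were 2.2 to 2.44 Gabbr2 reads in proliferating and 10.8 to 13.1 in differentiating primary cells. There were 2.60 to 7.05 in proliferating CG4 cells, 9.51 to 45.1 in controls, 27.7 to 64.3 with Zfp488 and 12.2 to 28.2 with Nkx2.2.

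The promoters of Gabbr2, Grm7 and Grin2c are shown because these genes rose in both sources and have no match to AAGTG. Capitals mark GGGCGG or its reverse complement CCGCCC, the GC box of Sp-family factors, found in 30.5% of the 33469 promoters and in 8 of the members' 17. Gabbr2 lies on the minus strand of chr5:66083696-66083945, has 1 match and is 78.8% G and C, where the median promoter is 51.2%. Grm7 lies on the plus strand, chr4:145286476-145286725, has 2 matches and is 62.0% G and C. Grin2c lies on the minus strand, chr10:101005139-101005388, has 0 matches and is 59.6% G and C.
Gabbr2: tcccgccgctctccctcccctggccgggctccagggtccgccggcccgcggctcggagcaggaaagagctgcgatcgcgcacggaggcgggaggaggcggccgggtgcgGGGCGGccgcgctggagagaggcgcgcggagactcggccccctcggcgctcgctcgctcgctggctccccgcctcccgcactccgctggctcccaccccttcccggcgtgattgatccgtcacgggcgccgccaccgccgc
Grm7: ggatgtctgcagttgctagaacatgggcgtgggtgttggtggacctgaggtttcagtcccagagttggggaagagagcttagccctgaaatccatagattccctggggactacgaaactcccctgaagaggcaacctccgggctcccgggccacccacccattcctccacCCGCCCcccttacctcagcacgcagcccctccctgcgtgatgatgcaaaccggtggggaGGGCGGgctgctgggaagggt
Grin2c: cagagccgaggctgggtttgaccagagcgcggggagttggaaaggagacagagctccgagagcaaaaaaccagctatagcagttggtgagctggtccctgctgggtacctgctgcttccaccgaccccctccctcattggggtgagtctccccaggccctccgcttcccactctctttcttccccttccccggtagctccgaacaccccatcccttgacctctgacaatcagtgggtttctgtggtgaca

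Receptor partners are the auxiliary subunits, scaffolds and trafficking proteins that place and tune these channels. Of 49 genes listed, 40 had an identifier. In primary cells 19 of 36 tested rose and 16 fell (median 0.27 against -0.02 over all genes), beside 41.5% and 43.3% of all genes. In CG4 cells 16 of 37 rose and 11 fell (median 0.34 against 0.01), beside 32.5% and 33.2%. Nptxr, the neuronal pentraxin receptor that clusters AMPA receptors, fell in primary cells from 1565 ± 56.8 to 38.7 ± 2.07 CPM (-5.30 ± 0.06, adjusted p = 1.61e-13). The scaffold genes Dlgap4 (1.99 ± 0.05, adjusted p = 1.53e-11) and Dlg1 (2.29 ± 0.06, adjusted p = 3.59e-11) rose there. In CG4 cells Neto1, an auxiliary subunit of kainate receptors, fell from 147 ± 28.1 to 18.4 ± 3.31 CPM (-2.97 ± 0.18, adjusted p = 4.95e-06). Cacng7, which encodes an AMPA receptor auxiliary subunit, rose from 118 ± 6.64 to 398 ± 77.0 CPM (1.78 ± 0.17, adjusted p = 4.45e-05), and the scaffold gene Homer3 rose by 1.64 ± 0.16 (adjusted p = 6.01e-05). The smallest adjusted p for a difference of response were those of Nptxr (4.84 ± 0.22) and Dlg1 (-2.65 ± 0.15), with adjusted p of 1.81e-10 and 1.02e-09.

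With Zfp488, 5 of 40 tested partner genes rose and 6 fell, beside 5.89% and 3.15% of all genes, and with Nkx2.2 5 rose and 2 fell, beside 6.10% and 4.48%. With the block these counts were 9 and 11 (14.0% and 10.2% of all genes), and 11 and 11 (12.6% and 13.5%). Cacng2 (stargazin, an AMPA receptor auxiliary subunit) had 2, 2, 3 and 3 reads in controls, 7, 51, 7 and 19 with Zfp488 and 30, 23, 14 and 29 with Nkx2.2, so it passed the filter only through the factor groups. The ratios of summed reads to control, per library size, were 10.7 (exact 95% interval 5.55 to 23.2) with Zfp488 and 11.5 (5.97 to 24.7) with Nkx2.2, for counting error only. Homer3 rose with Zfp488 by 0.45 ± 0.09 (adjusted p = 0.0131). Nptx1, a secreted pentraxin that gathers AMPA receptors, rose with Nkx2.2 from 1.58 ± 0.411 to 6.68 ± 0.909 CPM (2.09 ± 0.20, adjusted p = 6.52e-05), and Shisa6, another AMPA receptor partner, by 1.21 ± 0.25 (adjusted p = 0.00871). Nptx1 and Shisa6 were also lower with Zfp488 than with Nkx2.2, at -2.53 ± 0.21 and -2.09 ± 0.27 (adjusted p of 1.52e-05 and 2.65e-04).

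The ligand list holds 19 enzymes and related genes that make or break down glutamate, GABA and the NMDA co-agonist D-serine. In primary cells 12 rose and 5 fell (median 0.53 against -0.02 over all genes), beside 41.5% and 43.3% of all genes. In CG4 cells 4 rose and 6 fell (median -0.22 against 0.01), beside 32.5% and 33.2%. Glul, glutamine synthetase, rose in primary cells from 296 ± 11.8 to 2043 ± 29.9 CPM (2.83 ± 0.04, adjusted p = 7.58e-13). Abat, the GABA transaminase, rose by 3.48 ± 0.09 (adjusted p = 2.22e-11), and Psat1, of serine synthesis, by 1.87 ± 0.06 (adjusted p = 8.55e-11). In CG4 cells Srr, the serine racemase that makes D-serine, fell from 42.2 ± 3.95 to 12.2 ± 0.633 CPM (-1.77 ± 0.13, adjusted p = 1.09e-05). Shmt1 and Psph, of serine metabolism, fell by 2.02 ± 0.18 and 1.51 ± 0.28 on the log2 scale (adjusted p of 3.44e-05 and 0.00175).

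With the factors few of these 19 genes passed. With Zfp488, Glul and Gad1 rose and 0 fell, beside 5.89% and 3.15% of all genes. With Nkx2.2, Glul, Gad1 and Psph rose and 0 fell, beside 6.10% and 4.48%. The block fits gave 2 higher and 1 lower for Zfp488, beside 14.0% and 10.2% of all genes, and 4 higher and 3 lower for Nkx2.2, beside 12.6% and 13.5%. Glul rose with Zfp488 from 313 ± 29.7 to 996 ± 319 CPM (1.68 ± 0.21, adjusted p = 0.00196) and with Nkx2.2 to 519 ± 103 CPM (0.74 ± 0.21, adjusted p = 0.0417), where the second call ended without any 1 of 9 libraries (all but Zfp488 1 and 4 and Nkx2.2 1). Gad1, the GABA-making decarboxylase, rose from 1.05 ± 0.222 CPM to 2.35 ± 0.462 CPM with Nkx2.2 (1.17 ± 0.26, adjusted p = 0.0115). With Zfp488 it stood at 1.97 ± 0.659 CPM (0.92 ± 0.26, adjusted p = 0.0458), a call that ended without any 1 of 10 libraries (all but Zfp488 3 and Nkx2.2 3). Psph was higher with Nkx2.2 (0.45 ± 0.11, adjusted p = 0.0217), which ended without control 1, control 2 or Nkx2.2 4. The mean summed level of the oligodendrocyte markers was 24585 CPM with Zfp488, 12865 CPM in controls and 11156 CPM with Nkx2.2, and their part in the Glul values was not tested.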

How the data were processed

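Each library's deposited file holds raw read counts per gene. The submitters' processing notes list build rn6, STAR 2.5.2b, Trimmomatic 0.36 and, for counting, Subread 1.5.2 with its program featureCounts. Which annotation, strand setting and rule for multiply mapped reads the authors used is not given in these notes or the labels. Overlapping, antisense or closely similar genes may therefore share reads. The authors' 2 deposited tables also hold log2 fold changes, p-values and a normalized signal per library. They served for gene names and the values credited to them. That signal entered no result here.

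The quasi-likelihood test of edgeR 4.0.16 (R 4.3.3) was run on the raw counts (TMM, filterByExpr, two-sided, Benjamini-Hochberg over all genes tested, threshold 0.05). The fits held the 12 differentiating CG4 libraries, the 8 primary libraries, 7 CG4 libraries (control and proliferating), and the 15 primary, control and proliferating CG4 libraries over genes listed in both kinds of file. CPM are on 1 TMM scale over shared genes. The procedure was also run on simulated counts, and the outcome is not reported here. Those counts were drawn independently for each library, so that run does not cover libraries that deviate together. Titles call the libraries biological replicates, and p-values measure the spread between them.

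Members and related lists were chosen with earlier results of these data known. Described singly are members called in any of the 8 comparisons or with a mean of at least 1 CPM in a group. Partner and ligand genes are named where among the 3 smallest adjusted p of their list in a comparison, and a part of these is printed. One member and some list genes are counted but their own values are not reported here. No gene lengths were at hand, so levels are not compared between genes. Same-numbered libraries of the differentiating CG4 groups deviated together from their group means (correlations of 0.145 to 0.672, over 0.1 in every pair), while the labels do not give what same-numbered libraries share. Differentiating primary libraries 1 and 2, and 3 and 4, form close pairs (chi-square over degrees of freedom of 8.16 and 1.74, and 28.1 to 35.5 across). Proliferating primary libraries lie at 2.11 to 4.33 in every pair and were not summed, where pairs within CG4 groups lie at 21.9 to 254. Primary SE and adjusted p measure this small spread only. What these libraries share is not given beyond the titles' words. The alternatives were RLE factors, no filter, DESeq2 1.42.0, the replicate block, fewer libraries or genes in the fit, summed close pairs and leaving out each library. Scaling by library totals was added after the data were seen.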

Additional observations from a re-analysis of the deposited data

Results flagged for a closer look

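Libraries far from the rest of their group of 4 were found in 5 of 116 tests, near the 1 in 20 that chance gives, and 4 are given. With Zfp488, replicate 3 held 431 CPM of Grik5 beside 325 to 343 CPM in the others. Replicate 4 held 53.0 CPM of Gria3 beside 60.9 to 61.4 CPM. Replicate 1 held 11.6 CPM of Grik3 beside 3.85 to 4.85 CPM. With Nkx2.2, replicate 1 held 2.37 CPM of Gabrp beside 1.00 to 1.11 CPM.

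The differentiation response of CG4 minus that of primary cells passed edgeR's interaction test for 19 members, of which 18 are named. It was negative for Grin3a (-6.77), Grm7 (-4.92), Gabra2 (-4.25), Grik3 (-4.11), Gabrg1 (-3.52), Grin2c (-2.97), Gabra4 (-2.72), Gria4 (-2.10), Grik2 (-1.90), Grid1 (-1.58) and Gria2 (-1.11). It was positive for Grin3b (7.67), Grm2 (2.98), Grid2ip (2.98), Gabbr2 (2.80), Gabbr1 (2.34), Grik5 (2.02) and Grin2d (1.33). Grm2 had 10 reads over the 3 proliferating CG4 libraries and was tested only through its reads in primary cells, so its value is no support for a difference. The share of all genes that passed the same test was 69.3%, and vector and read length differ between the CG4 groups as the condition does.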

How the results depend on the processing

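The factor comparisons were the least stable. The counts of members called (4 for Zfp488, 3 for Nkx2.2, 10 between them) became 11, 10 and 16 with the replicate block, and DESeq2 called 5 for Nkx2.2. Leaving out 1 library gave 0 to 4, 2 to 5 and 5 to 11. Counts in the other 5 comparisons kept within 1.5 times of their values under every alternative run, with 17 to 18, 13 to 16, 18 to 20, 16 to 19 and 14 to 17 without 1 library (primary, CG4, difference of responses, differentiating and proliferating cells). The block gave 17, 15, 19, 18 and 12 there; same-numbered libraries of those groups share only a number (correlations of -0.125 to 0.071), and some of these fits lack replicate 4. Of 121 member values followed, RLE factors changed no call. Library totals turned Gria4 (-0.01) and Grin3b (-0.31) in primary cells and ended 8 other calls. The values followed are the calls in each comparison and, in the factor comparisons, those made with the block. Over their 1466 values without 1 library, 82 calls ended, 13 were gained and 0 turned. The other 60 member values gained 14 calls over 711 values without 1 library, all outside the factor comparisons. Genes under about 20 reads per library, such as Grin2c and Grm2 in CG4 cells, are limited by depth.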
